A study of Mus musculus with 6 samples.

Results

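The genes followed here protect cells from apoptosis, and their levels were compared between mammary buds with and without added ectodysplasin. They are *Birc2*, *Birc3*, *Xiap*, *Traf1*, *Traf2*, *Cflar*, *Bcl2*, *Bcl2l1* and *Mcl1*. All were taken from the deposited table by Ensembl gene identifier, and all 9 had a row among its 25949 probe sets. Names were paired with identifiers by the list of members, since the deposited table holds identifiers alone. Expression had been profiled on 6 microarrays, 3 of control buds and 3 of buds treated with recombinant Fc-Eda-A1 protein (hereafter Fc-Eda) for 4 h. By the study's methods, control buds were kept in control medium for the same time. All buds came from E13.5 *Eda-/-* embryos of B6CBA background, which lack the ligand Eda, so that the control buds had neither endogenous nor added ligand, and wild-type buds were not part of the comparison. Each array held a pool of about 20 epithelial buds from 5 to 6 embryos, and the design of the series names 3 litters. The buds of 1 side of each embryo served as control while those of the other side were treated, so that the arrays form 3 pairs. The pool sizes are those of the sample labels. The study's array methods give bud numbers that also reach lower, and so do the embryo numbers in its culture methods. Most but not all of the surrounding mesenchyme had been removed by hand. Level changes in such pools do not tell apart a change in the number of cells of a type from a change in RNA per cell. Markers of epithelium and mesenchyme, and *Eda* itself, were not analysed here, because their identifiers have no names in the tables used.

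Eda is a ligand of the tumor necrosis factor family, and its receptor Edar activates the transcription factor NF-κB. Receptors of this family can drive both survival and death. Inhibitor of apoptosis proteins (IAPs) and TRAF adaptors sit at the receptor complexes, Cflar (c-FLIP) holds back caspase-8, and the anti-apoptotic Bcl2 proteins keep the mitochondrial outer membrane closed. Several of these genes, among them *Birc3*, *Traf1*, *Cflar* and *Bcl2l1*, are known NF-κB target genes in other cell types. The comparison asked which of them differed between treated and control buds after a short exposure.

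Of the 9 genes, *Birc3* stood apart. It was 1.74-fold higher after Fc-Eda treatment, with a 95% interval of 1.43 to 2.11 from limma, and it passed a q-value threshold of 0.05 in 2 of the 3 tests that the study's methods name. *Bcl2* and *Mcl1* were higher in each of the 3 pairs by smaller amounts and passed the threshold in none of the tests. The mean differences of the other 6 genes lay between -0.13 and 0.11 on the log2 scale, and none of these 6 passed the threshold in any of the 3 tests. *Traf1*, although a known NF-κB target elsewhere, was among them, but its probe set is dim and its signal over background is not known.

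**Figure D1:**
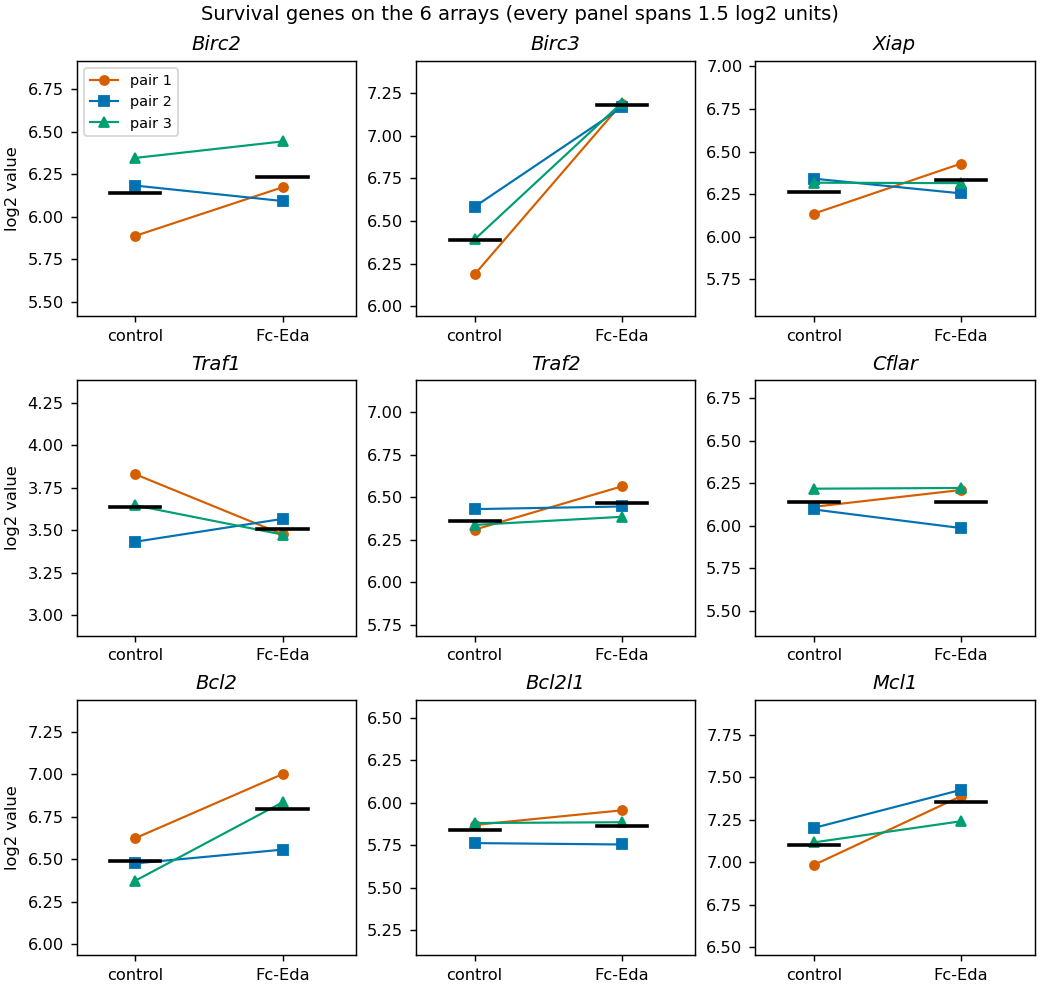
Log2 value of each of the 9 genes (vertical axis, every panel 1.5 log2 units high) on the control and Fc-Eda arrays; lines join the arrays of a pair and black bars are the means of 3 arrays. The Fc-Eda arrays of *Birc3* all lie above its control arrays and nearly coincide, from 7.17 to 7.19, while the lines of *Xiap* and *Birc2* cross.

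The IAP genes encode ubiquitin ligases that carry BIR and RING domains. *Birc3* (cIAP2, ENSMUSG00000032000_at) ubiquitinates components of the TNF receptor complex and keeps caspase-8 from being activated there. Its log2 value was 6.19, 6.58 and 6.39 in control replicates 1 to 3 and 7.19, 7.17 and 7.19 in the Fc-Eda samples of the same numbers. The groups did not overlap, and the lowest treated array lay 0.58 above the highest control array. The treated arrays varied by far less than the controls, with 7.18 ± 0.015 (SD, n = 3) against 6.39 ± 0.20, so that the pair differences of 1.00, 0.58 and 0.80 mostly mirrored the control values.

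The mean difference of *Birc3* was 0.80 with a standard error of 0.11 in limma, and its 95% interval ran from 0.52 to 1.07. In limma with the pairs as a block its q-value was 0.252 (unadjusted p = 0.000636), and limma called 0 of the 9 genes and 0% of all probe sets. IBMT, in which the prior variance is a smooth function of mean level, gave q = 0.0236, and 1 of the 9 genes was called higher where 0.339% of all probe sets were. The paired Cyber-T type test, which shrinks the variance toward that of probe sets of similar level, gave q = 0.00155, again with *Birc3* alone among the 9 and with 0.624% of all probe sets called higher. Of all probe sets, 49 had a larger mean difference than *Birc3*. It was 1 of the 73 probe sets, 0.281% of all, whose difference exceeded 0.5 in every pair.

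The call of *Birc3* depended on the test. IBMT did not call it when pair 1 was left out, when the pairing was dropped, or after quantile normalization, median centring or cyclic loess. Its calls of higher level over all 25949 probe sets then numbered 0, 22, 1, 54 and 18, against 88 before, so that fewer probe sets were called in each. The Cyber-T type test called *Birc3* under each of these normalizations and with any pair left out, with between 78 (without pair 3) and 337 (without pair 1) probe sets called higher. Its difference itself ranged from 0.69 without pair 1 to 0.90 without pair 2.

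*Birc2* (cIAP1, ENSMUSG00000057367_at) lies next to *Birc3* on chromosome 9 and shares its role at TNF receptors. It read 5.89, 6.18 and 6.35 in control buds and 6.17, 6.09 and 6.44 after treatment. The groups overlapped, and the difference was 0.29, -0.09 and 0.10 in pairs 1 to 3. Its mean difference was 0.10 with a 95% interval from -0.17 to 0.36 (q = 0.761 in limma), which leaves room for a rise of up to 1.28-fold. With a pair left out the mean ranged from 0.0031 (without pair 1) to 0.19 (without pair 2).

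Since both neighbours were read on the same arrays, the change of *Birc3* was also taken relative to that of *Birc2*, a contrast chosen after the values had been seen. The log2 difference of *Birc3* exceeded that of *Birc2* by 0.72, 0.67 and 0.71 in the 3 pairs. Its SD over the pairs was 0.023, against 0.21 for the difference of *Birc3* alone. Taken against each of the other 7 genes in turn, the SD ranged from 0.070 (*Xiap*) to 0.46 (*Traf1*), so that *Birc2* gave the smallest SD of the 8 and *Traf1* one above that of *Birc3* alone. Relative to the median of the other 8 genes, *Birc3* was higher by 0.73, 0.58 and 0.78. A sign-flip permutation test over 3 pairs, exact and two-sided, cannot go below p = 0.25, so no such test was made on these contrasts.

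*Xiap* (ENSMUSG00000025860_at), the IAP that inhibits executioner caspases directly, read 6.13, 6.34 and 6.32 in control buds and 6.43, 6.25 and 6.31 after treatment. It was higher in pair 1 alone, by 0.29, and the differences of pairs 2 and 3 were -0.09 and -0.0026. The mean difference of 0.07 had an interval from -0.20 to 0.34 (q = 0.783 in limma), and it turned to -0.044 without pair 1 and to -0.013 with array weights. Among the 3 IAP genes the difference therefore exceeded the spread between pairs in *Birc3* alone.

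The upstream sequences of these genes are shown because the family is discussed as NF-κB targets. RefSeq start sites on GRCm38.p6 gave 14 windows of 250 bases for the 9 genes, ending 1 base before the start site, and both strands were searched for the κB consensus and for the AP-1 motif TGANTCA. Capitals mark a κB match. The windows of *Birc3*, of its neighbour *Birc2* (the first of its 2 start sites) and of *Bcl2l1* (the second of 3 start sites) are given 5′ to 3′ on the strand of the gene.
Birc3, chr9:7873171-7873420, minus strand: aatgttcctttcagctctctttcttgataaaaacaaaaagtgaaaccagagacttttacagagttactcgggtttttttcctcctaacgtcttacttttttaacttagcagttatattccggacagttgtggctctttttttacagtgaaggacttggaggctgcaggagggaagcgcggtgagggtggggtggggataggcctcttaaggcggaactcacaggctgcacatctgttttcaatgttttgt
Birc2, chr9:7837058-7837307, minus strand: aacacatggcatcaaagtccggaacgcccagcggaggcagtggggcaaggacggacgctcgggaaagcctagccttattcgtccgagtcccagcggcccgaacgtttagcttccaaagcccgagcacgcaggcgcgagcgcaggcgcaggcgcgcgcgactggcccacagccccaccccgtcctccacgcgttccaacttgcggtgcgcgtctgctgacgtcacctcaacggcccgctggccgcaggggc
Bcl2l1, chr2:152830718-152830967, minus strand: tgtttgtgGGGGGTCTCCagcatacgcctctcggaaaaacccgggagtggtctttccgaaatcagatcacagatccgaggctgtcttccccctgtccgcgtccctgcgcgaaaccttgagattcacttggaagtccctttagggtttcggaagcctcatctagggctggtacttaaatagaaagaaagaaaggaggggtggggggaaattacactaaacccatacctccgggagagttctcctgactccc

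The κB consensus was found in 1 of the 14 windows, that of *Bcl2l1* shown, and in 7.25% of all 32851 windows of the table. The AP-1 motif was in 0 of the 14 and in 6.75% of all. No match overlapped another. The window of *Birc3* held neither motif, which says only that these letters are not in these 250 bases. It differed from its neighbour in base composition, with 43.6% G and C where the window of *Birc2* shown had 68.4%, and the median over all windows was 52.4%.

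TRAF proteins link TNF family receptors to downstream kinases, and Traf1 and Traf2 recruit the cIAPs. *Traf1* (ENSMUSG00000026875_at) read 3.83, 3.43 and 3.65 in control buds and 3.48, 3.57 and 3.47 after treatment. Its pair differences of -0.35, 0.13 and -0.17 did not share a direction, and the groups overlapped. The mean difference was -0.13 with an interval from -0.43 to 0.17 (q = 0.756 in limma), so that a rise of more than 1.13-fold lay outside the interval. With a pair left out the mean ranged from -0.26 (without pair 2) to -0.019 (without pair 1). The probe set is dim, with 25.8% of all probe sets below its mean level, and the deposited values hold no measure of background. In pair 1 the dim probe sets shifted as a whole: among the 4876 with a mean level of 3 to 4 the median difference was -0.28, against 0.0037 and 0.02 in pairs 2 and 3. After cyclic loess, which removes such a level-dependent shift, the difference of *Traf1* in pair 1 was -0.08 and its mean -0.05.

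*Traf2* (ENSMUSG00000026942_at), the adaptor through which TNF receptors reach NF-κB and JNK, read 6.31, 6.43 and 6.34 in control buds and 6.56, 6.44 and 6.38 after treatment. It was higher in each pair, by 0.25, 0.02 and 0.05, but the groups overlapped. The mean difference was 0.11 with an interval from -0.13 to 0.34 (q = 0.756 in limma), and it was 0.03 without pair 1.

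*Cflar* (ENSMUSG00000026031_at) encodes c-FLIP, a caspase-8 homologue without protease activity that competes for the death-inducing complex. Its value was 6.11, 6.10 and 6.22 in control buds and 6.21, 5.99 and 6.22 after treatment. The pair differences of 0.10, -0.11 and 0.0043 centred on a mean of -0.0021. The interval ran from -0.22 to 0.22 (q = 0.853 in limma), with its upper end at a 1.16-fold rise. The mean difference became 0.055 with each array centred on its median.

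**Figure D2:**
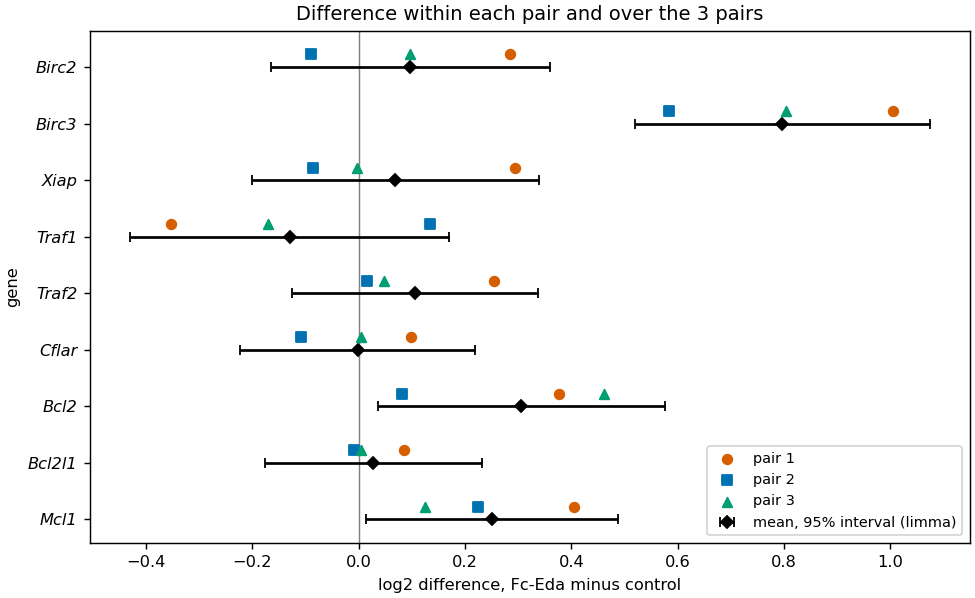
Log2 difference between Fc-Eda and control (horizontal axis) for each gene; coloured points are the 3 pairs, and diamonds with bars the mean and its 95% interval from limma with the pairs as a block. The intervals of *Birc3*, *Bcl2* and *Mcl1* lie above 0 before adjustment over all probe sets, and those of the other 6 genes span 0.

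The anti-apoptotic Bcl2 proteins bind Bax, Bak and the BH3-only proteins at the mitochondrion. *Bcl2* (ENSMUSG00000057329_at), their prototype, read 6.63, 6.48 and 6.38 in control buds and 7.002, 6.56 and 6.84 after treatment. It was higher in every pair, by 0.38, 0.08 and 0.46, while the treated array of replicate 2 lay below the control array of replicate 1. The mean difference was 0.31 with a standard error of 0.11, a ratio of 1.24 with an interval from 1.03 to 1.49. In limma the unadjusted p was 0.033 and the q-value 0.670. In IBMT and the Cyber-T type test the q-values were 0.368 and 0.279. The unadjusted p of *Bcl2* in limma was 0.1004, 0.025 and 0.183 with pair 1, 2 or 3 left out, and 0.054 without the block.

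*Mcl1* (ENSMUSG00000038612_at) encodes a short-lived member of the family. It read 6.98, 7.20 and 7.12 in control buds and 7.39, 7.43 and 7.24 after treatment. The groups did not overlap, although the lowest treated array was only 0.039 above the highest control array, and the pair differences were 0.40, 0.22 and 0.12. The mean difference of 0.25, with a standard error of 0.09, corresponds to 1.19-fold with an interval from 1.01 to 1.40. The unadjusted p in limma was 0.042 and the q-value 0.691, and the q-values of IBMT and the Cyber-T type test were 0.384 and 0.317. With pair 1, 2 or 3 left out, the unadjusted p of *Mcl1* in limma was 0.089, 0.134 and 0.071.

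*Bcl2l1* (ENSMUSG00000007659_at) encodes Bcl-xL and, by splicing, the pro-apoptotic Bcl-xS, which a value per gene does not separate. Its control values of 5.87, 5.76 and 5.88 were followed by 5.95, 5.75 and 5.88 in the treated arrays. With pair differences of 0.09, -0.0081 and 0.0047 it had the smallest spread between pairs of the 9 genes, an SD of 0.05. The mean difference was 0.03 with an interval from -0.18 to 0.23 (q = 0.818 in limma). The upper end of that interval is a 1.17-fold rise of the value per gene. The κB match shown above lay in 1 of the 3 windows of this gene, where 7.25% of all windows held a match.

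Counted together, 3 of the 9 genes (*Birc3*, *Bcl2* and *Mcl1*) were higher at an unadjusted p under 0.05 in limma, where 2.73% of all probe sets were, and 0 were lower, where 3.33% of all probe sets were. With 1 pair left out, *Birc3* stayed below that p in each case, *Bcl2* only without pair 2 and *Mcl1* in none. In IBMT and the Cyber-T type test *Birc3*, *Bcl2* and *Mcl1* again were higher at that threshold, against 4.1% and 4.02% of all probe sets, and 0 of the 9 were lower, against 3.24% and 3.32%. In 4 genes (*Birc3*, *Traf2*, *Bcl2* and *Mcl1*) treated buds were higher in all 3 pairs, against 13.2% of all probe sets, and 0 genes were lower in all 3, against 15.3%. The 3 treated arrays lay above all 3 control arrays in 2 genes (*Birc3* and *Mcl1*), against 3.98% of all probe sets, and below them in 0, against 5.11%. The median of the 9 mean differences was 0.10 and that over all probe sets -0.02. The members were chosen with earlier results of these data known, so these counts are descriptions.

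**Figure D3:**
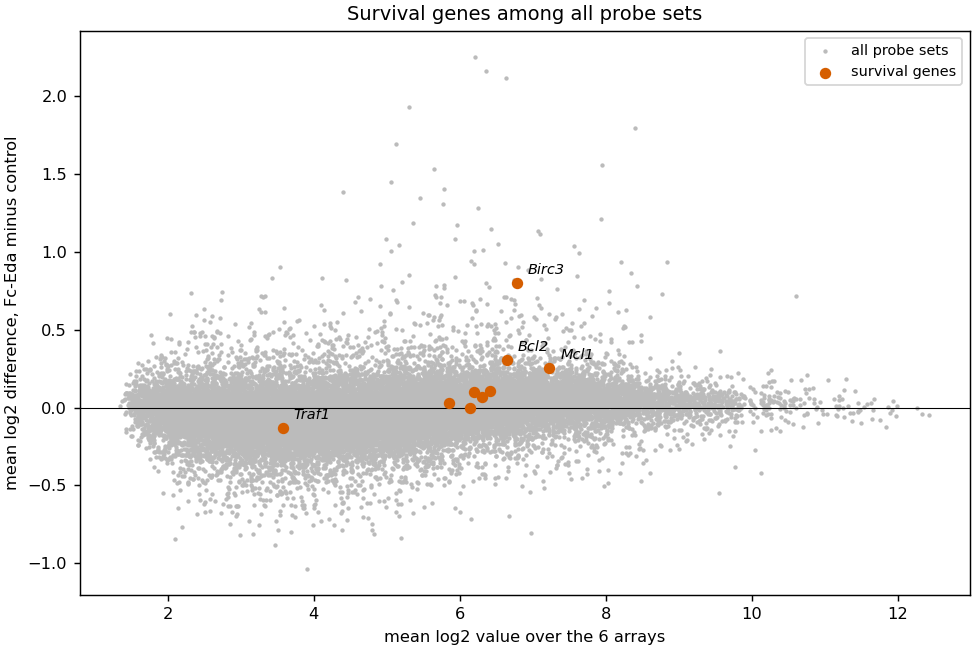
Mean log2 difference between Fc-Eda and control (vertical axis) against the mean log2 value over the 6 arrays (horizontal axis) for all 25949 probe sets in grey and the 9 genes in orange. *Birc3* lies above the bulk of probe sets at its level, *Bcl2* and *Mcl1* at its upper side and the others within it, with *Traf1* alone in the dim part.

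The array of control replicate 1 stood apart from the rest. Its median over all probe sets was 4.99, against 4.80 to 4.83 on the other arrays, and its interquartile range 2.59, against 2.81 to 2.96. All of the genes but *Traf1* lie between 5.5 and 7.5 in mean level. Over the 7476 probe sets in that range the median difference was 0.09 in pair 1, with 67.5% of them higher after treatment, but -0.0022 and -0.00056 in pairs 2 and 3. In the same pair 8 of the 9 genes were higher, against 5 in pair 2 and 7 in pair 3. The share of all probe sets that were higher was 40.8%, 50.1% and 52.3% in pairs 1 to 3, and within the range of levels it was 49.3% and 49.8% in pairs 2 and 3. Pair 1 held the difference of largest size, in either direction, of *Birc2*, *Birc3*, *Xiap*, *Traf1*, *Traf2*, *Bcl2l1* and *Mcl1*. Without pair 1 the mean difference was 0.69 for *Birc3*, 0.27 for *Bcl2* and 0.17 for *Mcl1*, and between -0.05 and 0.03 for the other 6 genes. How much of the pair 1 differences belongs to this array was not tested.

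**Figure D4:**
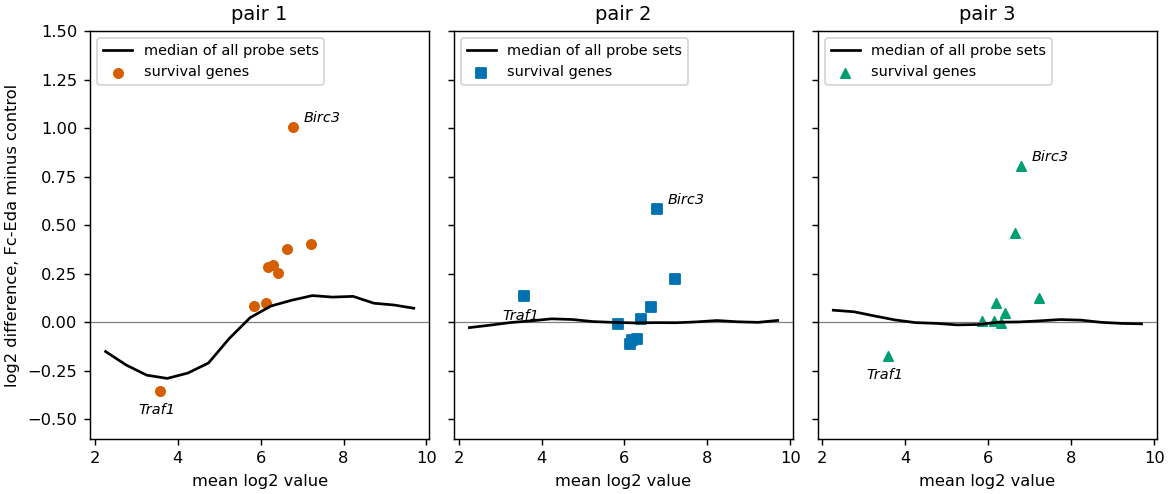
Log2 difference between Fc-Eda and control (vertical axis) against mean log2 value (horizontal axis) in each pair; the black line is the median of all probe sets in steps of 0.5 and points are the 9 genes. The line bends from -0.29 to 0.14 in pair 1 and stays near 0 in pairs 2 and 3, while *Birc3* lies well above the line in all 3 pairs.

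The 3 highest genes kept their direction in every pair when the arrays were normalized again, but their size in pair 1 moved. After cyclic loess the mean difference was 0.76 for *Birc3*, 0.27 for *Bcl2* and 0.21 for *Mcl1*, and the pair differences of *Birc3* were 0.90, 0.58 and 0.80, with an SD of 0.16 against 0.21 as deposited. After centring on the median they were 1.19, 0.57 and 0.80, with an SD of 0.31, and the means of *Birc3*, *Bcl2* and *Mcl1* were 0.85, 0.36 and 0.31. The difference of *Mcl1* in pair 1 ran from 0.29 after cyclic loess to 0.59 after centring. The count of genes higher in all 3 pairs was 4 after cyclic loess, after quantile normalization and after centring. The share of all probe sets higher in all 3 pairs was not computed after these, so the count has no background there.

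**Figure D5:**
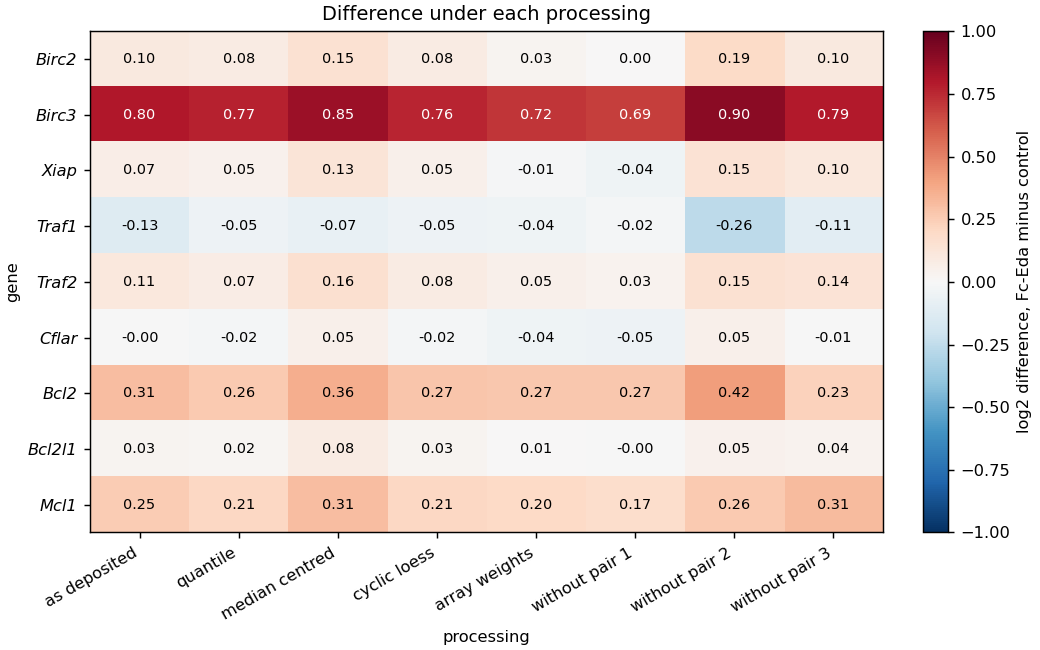
Mean log2 difference of each gene (rows) under each processing of the arrays (columns), printed in the cells and coloured from blue (lower) through white at 0 to red (higher). *Birc3* ranges from 0.69 to 0.90, *Bcl2* from 0.23 to 0.42 and *Mcl1* from 0.17 to 0.31, while *Xiap*, *Cflar* and *Bcl2l1* change sign in at least 1 column.

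Over all probe sets, the 2 whose 3 pair differences lay closest to those of *Birc3* were ENSMUSG00000028680_at and ENSMUSG00000032487_at, at a Euclidean distance of 0.15 each. Their pair differences were 0.89, 0.65 and 0.87 for the first and 1.01, 0.64 and 0.66 for the second. ENSMUSG00000083178_at came next at a distance of 0.17, with 1.00, 0.41 and 0.81. IBMT called the first 2 (q = 0.0151 and 0.0355) but not ENSMUSG00000083178_at (q = 0.164). With 3 pairs such likeness describes these arrays only, and the tables used here give none of them a name.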

How the data were processed

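The authors hybridized RNA of the 6 pools to Affymetrix Mouse Exon 1.0 ST arrays and deposited RMA values on the log2 scale, with 1 row for each of 25949 Ensembl gene identifiers. The submitters' processing notes name RMA, with no options. The 6 arrays were used as deposited, and their number limits the precision. Groups and replicate numbers come from the sample titles, and the numbers pair the arrays because both conditions received buds of the same embryos. After subtraction of the group means, same-numbered arrays correlated with r = 0.0793, 0.291 and 0.287 across probe sets. The labels call the replicates biological.

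The fit in limma 3.58.1 (R 4.3.3) had treatment and replicate number as terms. IBMT (loess span 0.75) and a Cyber-T type paired test (prior weight 10) were written out from their formulas, and defaults of the original programs may differ. All p-values were turned into Storey q-values (spline of 3 degrees of freedom) over all probe sets, with a threshold of 0.05. The tests were also run on simulated arrays that lacked a shift like that of control replicate 1, so the run does not cover it. The members and lists were chosen with earlier results of these data known. The rule for named genes was to give all 9 members, and for each member called the probe sets with the smallest Euclidean distance over the pair differences. Lists of other apoptosis genes and cell type markers were not analysed, because no table used here pairs the identifiers with names. Promoter windows are RefSeq sequence on GRCm38.p6, matched by symbol for 9 of 9 genes. Alternatives were other normalizations, no block, trend, array weights, an ordinary paired t-test, Benjamini-Hochberg adjustment, a filter at the median level and leaving out each pair.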

Additional observations from a re-analysis of the deposited data

How the results depend on the processing

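Limma called 0 of the 9 genes, and 1 (*Birc3*) with trend and robust moderation (q = 0.0235; 90 of all 25949 probe sets higher) or after a filter at the median level (85 of 12974 higher), which 8 of the 9 genes pass. An ordinary paired t-test without moderation called 1 unadjusted (802 of all higher) and 0 after Benjamini-Hochberg adjustment (0 of all higher, 1 lower). IBMT called 1 (*Birc3*), and 0 after quantile normalization, centring on the median or cyclic loess. With no replicate block, IBMT called 0 (22 of all 25949 higher, 1 lower) and limma 0 (3 of all higher, 0 lower). At an unadjusted p under 0.05 limma, IBMT and the Cyber-T type test each called 3. The cause of these moves was not tested. With 1 pair left out at a time, limma called 0 to 0 (0, 5 and 10 of all probe sets higher without replicates 1, 2 and 3), IBMT 0 to 1 (0 without replicate 1; 0, 159 and 256 of all higher and 0, 58 and 269 lower) and the Cyber-T type test 1 to 1. The Cyber-T type test called 1 gene under each alternative with a q-value or Benjamini-Hochberg adjustment. Over all probe sets it called 208 of 12974 higher and 52 lower after the filter at the median level. With Benjamini-Hochberg adjustment it called 159 of 25949 higher and 31 lower.

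In limma the q-value of *Birc3* ranged from 0.0235 to 0.435 over 9 alternatives and that of *Bcl2* from 0.380 to 0.962. *Birc2*, *Birc3*, *Traf1*, *Traf2*, *Bcl2* and *Mcl1* kept their direction in 9 of 9 alternatives. *Cflar* turned to 0.055 after centring and ranged from -0.052 to 0.051 with a pair left out. *Xiap* turned to -0.013 with array weights and ranged from -0.044 to 0.146 with a pair left out. *Bcl2l1* ranged from -0.0017 to 0.045 with a pair left out. The counts over the lists of other genes were not run. Signal over background is not known.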
